A study of Mus musculus with 4 samples.

Results

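The NF-kB transcription factor subunits and the IkB proteins that bind them were followed in CD4+CD8+ double-positive (DP) thymocytes of WT mice and of mice in which Chaf1b was targeted. The 10 genes were taken by symbol from the 56239 genes of the count table: the 5 subunit genes Nfkb1, Nfkb2, Rel, Rela and Relb, the 3 classical inhibitor genes Nfkbia, Nfkbib and Nfkbie, and the 2 nuclear IkB genes Nfkbid and Nfkbiz. All 10 were found and all 10 passed the filter on low counts. The cells were sorted from the thymus of C57BL/6 mice. The 2 WT libraries carried the CHAF1bfloxp/floxp alleles without Cre. In the 2 KO libraries Cd4-cre, which drives Cre recombinase from Cd4 sequences, was added to these alleles. Every library thus held the floxed alleles, and no library held Cre without them. No source used here gives the ages of the mice or says whether each library came from its own mouse, so a p-value speaks of these libraries and their spread, which may be technical.

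NF-kB factors are dimers of proteins that share the Rel homology domain. In resting cells classical IkB proteins hold the dimers in the cytoplasm, and receptors of antigen, tumour necrosis factor and other ligands release them through the IkB kinase (IKK) complex, which marks IkB for destruction. Nfkb1 and Nfkb2 encode long precursors that also act as inhibitors until they are processed. The nuclear, or atypical, IkB proteins encoded by Nfkbid and Nfkbiz bind NF-kB on DNA and can raise or lower transcription of its targets. In the thymus NF-kB acts in survival and in selection by the T cell receptor, and Nfkbid is known for its induction by strong receptor signals.

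Library totals ran from 21068760 to 27369874 counts. Chaf1b, the deleted gene, had 27.9 and 31.7 CPM (counts scaled to library size with TMM factors) in the WT libraries and 12.2 and 14.8 CPM in the KO libraries. KO libraries thus kept 40.8% and 49.7% of the WT mean. The log2 fold change of Chaf1b did not pass the planned test (edgeR adjusted p = 0.267) and did with a term for sex (edgeR adjusted p = 0.0172). Xist and Ddx3y put female cells in replicate 1 of each genotype and male cells in replicate 2, with 47368 and 47301 counts of Xist in the WT and KO libraries of replicate 1 and 8 and 12 in those of replicate 2. The planned edgeR test had no term for this, and the fit called the sex-term fit here adds the replicate number, which also stands for any batch shared by a number. KO replicate 1 stood apart, with 3.30% of its counts from mitochondrial genes against 2.03% in KO replicate 2 and 1.33% and 1.45% in WT, and with 1862 CPM of the proliferation marker Mki67 against 792 to 953 CPM in the other libraries. All 14 DP marker genes on the list were tested and together had 19960 to 25270 CPM, which does not measure the purity of the sort. Of these only Cd1d1 was called, lower in KO in the sex-term fit, which called 2.20% of all genes lower. The 9 marker genes of mature single-positive cells summed to 519.7 and 489.6 CPM in WT and 608.7 and 588.6 CPM in KO. Of them 8 were tested and 0 were called in either fit. In bulk RNA, fewer cells of a type and less RNA per cell cannot be told apart.

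Many genes of this family carry NF-kB sites of their own, by which the factor can drive its own inhibitors. RefSeq starts on GRCm38.p6 matched 7 of the 10 genes and gave 11 windows of 250 bases before the transcription start. Nfkb1, Relb and Nfkbiz were not matched. The NF-kB consensus site (the kappaB motif, searched on both strands, with overlapping matches joined) was found in 7 of the 11 windows and in 4 of the 7 windows before a gene's first start. The genes that held it in any window were Nfkb2, Rel, Nfkbia, Nfkbie and Nfkbid. It was not found in those of Rela and Nfkbib. Of 32851 windows of that length over all genes, 7.25% held it. In Nfkbie the match began 106 bases upstream of the start, and before the first start of Nfkb2 there were matches 39 and 11 bases upstream. Of the 2 members called lower in the sex-term fit, Nfkbid and Nfkbiz, only Nfkbid had windows. The 3 windows below belong to Nfkbid, to the most abundant inhibitor (Nfkbia) and to the subunit with the largest increase in value (Rel). Capitals mark the kappaB matches. The Nfkbid window, chr7:30422156-30422405 on the plus strand, lies before the second annotated start, within the span of the gene. Its matches begin 226 and 181 bases upstream of that start. The windows before the other annotated starts of Nfkbid held no match. The Nfkbia window, chr12:55492648-55492897 on the minus strand, has its match 29 bases upstream of the start, and the Rel window, chr11:23770970-23771219 on the minus strand, has one 92 bases upstream. A match describes the letters only.
Nfkbid: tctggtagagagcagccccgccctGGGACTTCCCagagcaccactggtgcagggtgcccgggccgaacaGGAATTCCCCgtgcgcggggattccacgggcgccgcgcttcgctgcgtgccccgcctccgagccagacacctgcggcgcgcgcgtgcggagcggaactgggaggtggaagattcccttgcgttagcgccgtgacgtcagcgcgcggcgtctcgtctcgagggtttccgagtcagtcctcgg
Nfkbia: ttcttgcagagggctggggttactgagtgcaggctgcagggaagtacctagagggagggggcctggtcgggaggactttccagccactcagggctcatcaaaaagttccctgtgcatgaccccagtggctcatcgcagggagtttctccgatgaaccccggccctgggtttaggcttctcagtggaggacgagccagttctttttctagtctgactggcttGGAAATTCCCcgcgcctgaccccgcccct
Rel: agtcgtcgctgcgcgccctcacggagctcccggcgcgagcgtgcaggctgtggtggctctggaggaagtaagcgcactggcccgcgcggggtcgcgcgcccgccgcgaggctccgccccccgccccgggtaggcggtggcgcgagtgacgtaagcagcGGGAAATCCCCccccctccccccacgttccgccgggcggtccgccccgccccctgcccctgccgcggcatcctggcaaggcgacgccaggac

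Per length, the inhibitors and subunits spanned a wide range of levels in WT cells. On the TPM scale (counts divided by gene length and scaled to 1 total per library), the WT mean was 473 for Nfkbia, the main cytoplasmic inhibitor, and 118 for Rela, the subunit that carries most transactivation. Nfkbie followed at 65.98 TPM, Nfkbib at 46.6 and Nfkbid at 41.5. Nfkb1 stood at 30.6 TPM, Nfkb2 at 26.2 and Nfkbiz at 24.8. The lowest levels were those of Rel, at 11.1 TPM, and Relb, the partner of Nfkb2 in the noncanonical pathway, at 5.28. In this order Nfkb2 (25.5 and 27.02 TPM) and Nfkbiz (23.8 and 25.8 TPM) overlapped between the WT libraries, and no other neighbours did. Nfkbid, above Nfkb1 in both WT libraries, lay below it in both KO libraries, at 12.4 and 27.8 TPM against 30.0 and 35.9. The other WT neighbours kept their order in both KO libraries, except Nfkbiz and Rel. The place of Nfkbid against Nfkb2, which were not neighbours in WT, also differed between the KO libraries. In KO replicate 1 Nfkbid lay below Nfkb2 (21.7 TPM) and Nfkbiz, at 5.97 TPM, below Rel (13.8 TPM). In KO replicate 2 Nfkbid lay beside Nfkb2 (27.7 TPM) and Nfkbiz, at 15.2 TPM, above Rel (13.3 TPM), as in WT.

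**Figure D1:**
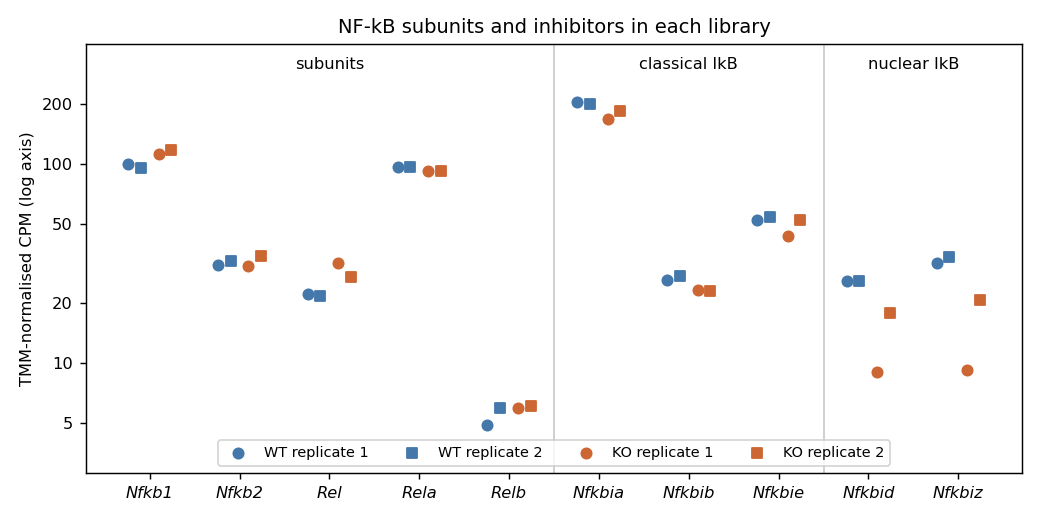
TMM-normalised CPM (log axis) of the 10 members, 1 point per library, with circles for replicate 1 and squares for replicate 2. The KO points of Nfkbid and Nfkbiz lie below the WT points, from 8.996 to 17.8 CPM against 25.6 to 25.9 for Nfkbid.

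The nuclear IkB genes were the only members past the threshold in the sex-term fit, and both fell. In the planned edgeR test none of the 10 members passed an adjusted p of 0.05 in either direction, and over all 15070 genes that test called 0.00664% (1 gene, higher in KO). At an unadjusted p under 0.05 in the planned test 3 members stood out, Nfkbid and Nfkbiz lower and Rel higher, against 8.69% of all genes lower and 8.14% higher. The sex-term fit called 2 of the 10 members lower and 0 higher, against 2.20% of all genes called lower and 1.01% higher (3.21% in either direction). DESeq2 called Nfkbiz alone without the sex term, where 1.89% of all genes were called lower and 1.17% higher. With the term it called both genes, where 1.67% of all genes were called lower and 0.849% higher. With library totals in place of TMM the sex-term fit called 119 genes lower and 26 higher in place of 331 and 152, and then called Nfkbiz but not Nfkbid. With a robust dispersion estimate it called neither (edgeR adjusted p = 0.0550 for Nfkbiz and 0.0648 for Nfkbid). Leaving libraries out of the planned test is read below against its calls over all genes. Without KO replicate 1 it called 349 genes lower and 171 higher, and without KO replicate 2 it called 2630 lower and 2518 higher. In both cases the KO group is 1 library and the spread comes from the WT libraries alone. Without a WT library it called 0 genes lower and at most 2 higher. The members were chosen with earlier results of these data known, so the calls of these genes are not independent evidence.

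Nfkbiz encodes IkB-zeta, a nuclear IkB that is induced by receptor signals and opens a set of secondary NF-kB targets in other cells. It lies on chromosome 16, from 55811375 to 55838899 (GRCm38, ENSMUSG00000035356). It had 31.8 and 34.1 CPM in WT replicates 1 and 2 and 9.26 and 20.8 CPM in KO replicates 1 and 2. The groups did not overlap, and KO replicate 1 was the lowest library. KO replicate 1 stood at 28.1% of the WT mean and KO replicate 2 at 63.0%. The log2 fold change was -1.14 ± 0.35 (SE) in the planned test (edgeR adjusted p = 0.267), with a 95% interval of -1.999 to -0.27. In the sex-term fit it was -1.23 ± 0.23 (edgeR adjusted p = 0.0235), with an interval of -1.73 to -0.73. KO minus WT came to -1.77 on the log2 scale between the female libraries and to -0.71 between the male libraries. Of all tested genes 1.97% had a lower sex-term log2 fold change. Without KO replicate 1 the planned test gave -0.66 (edgeR adjusted p = 0.0218), and without KO replicate 2 it gave -1.84 (edgeR adjusted p = 2.08e-05). Without WT replicate 1 or 2 the gene was not called (edgeR adjusted p = 0.549 and 0.6997).

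Nfkbid encodes IkB-NS, a nuclear IkB needed for full induction of several receptor-dependent genes in lymphocytes. It lies on chromosome 7, from 30421732 to 30428746 (ENSMUSG00000036931). It had 25.9 and 25.6 CPM in the WT libraries and 8.996 and 17.8 CPM in KO replicates 1 and 2. The WT libraries were nearly equal, both KO libraries lay below them, and KO replicate 1 was again the lowest. KO replicate 1 stood at 34.9% of the WT mean and KO replicate 2 at 68.9%. The log2 fold change was -0.95 ± 0.31 (SE) in the planned test (edgeR adjusted p = 0.267) and -1.01 ± 0.23 in the sex-term fit (edgeR adjusted p = 0.0389). Its sex-term 95% interval ran from -1.51 to -0.52. KO minus WT came to -1.52 on the log2 scale between the female libraries and to -0.53 between the male libraries. Of all tested genes 3.74% had a lower sex-term log2 fold change. Without KO replicate 1 the planned test gave -0.53 (edgeR adjusted p = 0.0463), and without KO replicate 2 it gave -1.52 (edgeR adjusted p = 6.13e-05). Without WT replicate 1 or 2 it was not called (edgeR adjusted p = 0.682 and 0.734).

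Both genes differed more in the library with the highest mitochondrial share, whose part in the result was not tested. Over the list of macrophages and granulocytes, cells in which Nfkbiz is also known, the summed level was 19.3 and 17.8 CPM in WT and 13.9 and 15.6 CPM in KO. Of its 10 genes 7 were tested and none was called in either fit, and S100a8 was at 0 in every library. Among the 7 tested genes 3 had both KO libraries below both WT libraries and 3 had both above. Over all tested genes the shares were 28.4% and 27.9%. Lyz2 had 5.70 and 5.29 CPM in WT and 1.32 and 4.44 CPM in KO, and Csf1r had 0.591 and 0.811 CPM in WT and 2.56 and 1.34 CPM in KO. The B cell list summed to 489 and 426 CPM in WT and 494 and 493 CPM in KO, most of it Ighm, whose groups overlapped. Of its 3 tested genes Cd79b was called higher in the sex-term fit, which called 1.01% of all genes higher. Cd79a had 1.14 and 2.12 CPM in WT and 0.706 and 0.879 CPM in KO and was not called. The list of natural killer and gamma-delta T cells summed to 112 and 94.4 CPM in WT and 154 and 122 CPM in KO. Ncr1 and Gzmb were at 0. Of the list's 9 genes 3 were tested, and all 3 had both KO libraries above both WT libraries. Gzma was called higher in the sex-term fit, beside the same 1.01% of all genes. The part of such cells in the result was not tested. The exons of Nfkbid and Nfkbiz overlap no other gene of the table. By transcript G+C content (57.1% for Nfkbid and 50.1% for Nfkbiz), the genes fell in the highest and the middle of 5 equal bins of the tested genes. The median sex-term log2 fold change of those bins was -0.09 and 0.02. In the sex-term fit 4.45% and 1.36% of their genes were called lower, beside 2.20% of all genes. Within its bin, 5.38% of genes had a lower log2 fold change than Nfkbid and 1.53% of the other bin a lower one than Nfkbiz.

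**Figure D2:**
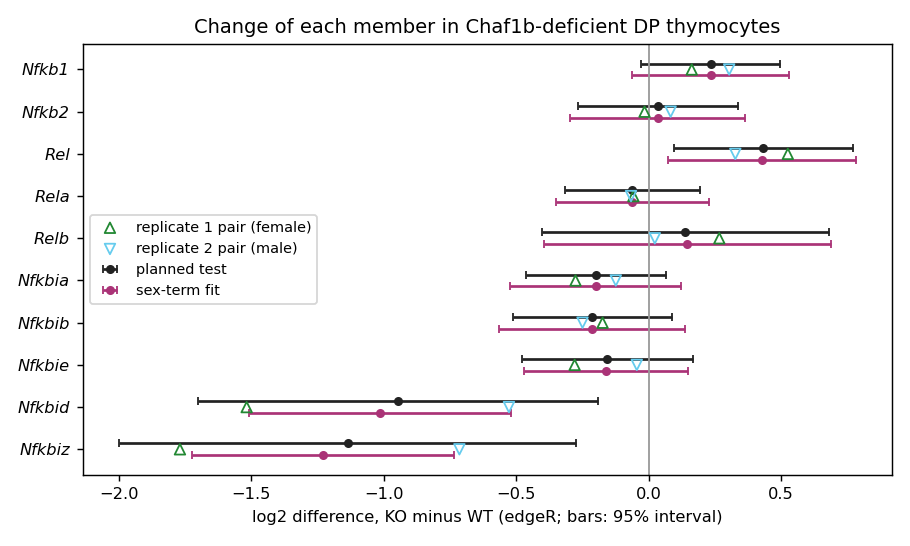
Log2 difference of each member, KO minus WT, from the planned test and the sex-term fit (points with 95% intervals) and within each replicate pair (triangles, 1 library per genotype, no error). No interval is adjusted over all genes. Those of Nfkbid and Nfkbiz lie below 0 in both fits, and that of Rel lies above 0. In the planned test each of these 3 genes had an edgeR adjusted p of 0.267.

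The classical inhibitors had values below WT that did not pass the test. Nfkbia, whose protein is the first IkB to be degraded and remade after a signal, had 203 and 199.9 CPM in WT and 168 and 183 CPM in KO replicates 1 and 2. Both KO libraries lay below both WT libraries, and the log2 fold change was -0.20 ± 0.11 (SE; edgeR adjusted p = 0.374 planned and 0.474 with the sex term). Without KO replicate 2, where 2630 genes were called lower, Nfkbia was among them, at -0.27 (edgeR adjusted p = 0.00888). No other alternative called it, with an adjusted p up to 0.994. Nfkbib, the slower inhibitor IkB-beta, had 26.1 and 27.4 CPM in WT and 23.1 and 23.0 CPM in KO. Its KO values lay close together below WT, with a log2 fold change of -0.21 and a planned 95% interval of -0.51 to 0.09. Of its exon bases 16.4% are shared with other genes, among them Sirt2, so its value is uncertain, since reads that fall on both genes are not counted. Nfkbie, IkB-epsilon, had 52.5 and 54.0 CPM in WT and 43.2 and 52.3 CPM in KO. KO replicate 2 lay just under the lower WT library, and the planned interval ran from -0.48 to 0.17. These intervals hold 0, and they do not show that the levels were alike.

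Among the subunits the values lay on both sides of WT, and none passed an adjusted threshold in the planned or sex-term fit. Rel, the lymphoid subunit c-Rel, had 22.1 and 21.6 CPM in WT and 31.9 and 27.1 CPM in KO replicates 1 and 2. Both KO libraries lay above both WT libraries. The log2 fold change was 0.43 ± 0.14 (SE), with a 95% interval of 0.10 to 0.77 (edgeR adjusted p = 0.267 planned and 0.158 with the sex term). Between the female libraries it was 0.53 and between the male libraries 0.33. Without KO replicate 2, where 2518 genes were called higher, Rel was among them, at 0.54 (edgeR adjusted p = 0.00540). No other alternative called it, and without WT replicate 1 or 2 its adjusted p was 0.951 and 0.870. Nfkb1, the precursor of the usual partner of Rela and Rel, had 100 and 95.6 CPM in WT and 112 and 118 CPM in KO. In CPM the groups again did not overlap, and the log2 fold change came to 0.23 ± 0.11 (SE; edgeR adjusted p = 0.321). In TPM Nfkb1 overlapped, at 31.16 and 30.05 in WT and 30.03 and 35.89 in KO replicates 1 and 2. Rela had 96.2 and 96.1 CPM in WT against 92.5 and 91.8 CPM in KO, with both KO libraries below both WT libraries. In TPM it had 117.7 and 118.7 in WT and 97.33 and 109.6 in KO replicates 1 and 2. Its planned log2 fold change was -0.06, with an interval of -0.32 to 0.19. Nfkb2 had 31.1 and 32.7 CPM in WT and 30.7 and 34.6 CPM in KO, and Relb had 4.90 and 5.96 CPM in WT and 5.91 and 6.06 CPM in KO. The genotypes overlapped for both. Of the exon bases of Nfkb2 18.1% are shared with genes on the other strand, among them Psd, which makes its value uncertain too.

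Counted over libraries in TMM-normalised CPM, 6 of the 10 members had both KO libraries below both WT libraries and 2 had both above. Over all tested genes the shares were 28.4% and 27.9%. The members' median log2 fold change was -0.11 in both fits, beside -0.003 (planned) and -0.01 (sex term) for all tested genes. The class medians in the sex-term fit were 0.15 for the subunits, -0.20 for the classical inhibitors and -1.12 for the nuclear IkB genes. The sign of each member except Nfkb2 was the same in all 14 alternatives.

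Set against each other within a library, which no scaling of whole libraries alters, the nuclear IkB transcripts made up a smaller share of inhibitor transcripts in KO. They held 10.1% and 10.3% of the summed TPM of the 5 inhibitors in WT and 4.21% and 7.63% in KO replicates 1 and 2. The log2 ratio of Nfkbiz to Nfkbia was -4.32 and -4.19 in WT and -5.82 and -4.78 in KO, and that of Nfkbid to Nfkbia was -3.52 and -3.51 in WT and -4.77 and -3.91 in KO. Nfkbid and Nfkbiz moved almost together, at a log2 ratio of 0.80 and 0.68 in WT and 1.06 and 0.87 in KO. The ratio of Rel to Rela rose in value, from -3.40 and -3.44 in WT to -2.82 and -3.04 in KO on the log2 scale. Summed over classes, the 5 inhibitors had 3.42 and 3.39 times the TPM of the 5 subunits in WT and 2.60 and 2.93 times in KO. With 2 libraries a group no exact permutation test could reach the threshold, so these ratios are given without a test.

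**Figure D3:**
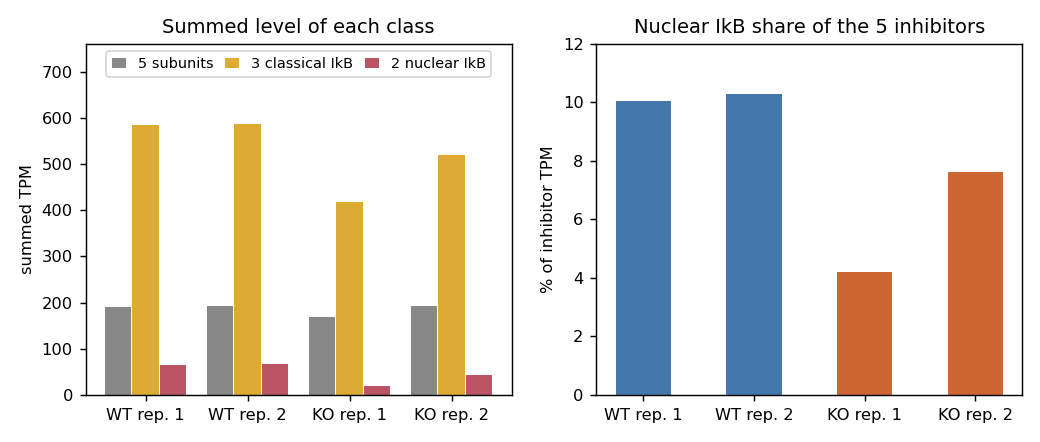
Left, summed TPM of the 5 subunits, the 3 classical inhibitors and the 2 nuclear IkB genes in each library. The direction for the subunits depends on the scale. Their summed TPM was 167.8 and 192.2 in KO against 190.2 and 192.5 in WT. In TMM-normalised CPM, not divided by length, the sums were 273 and 277.6 in KO against 254.3 and 251.9 in WT. Right, the nuclear IkB genes as a percentage of the summed TPM of the 5 inhibitors, at 10.1% and 10.3% in WT against 4.21% and 7.63% in KO.

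The rest of the pathway was taken from lists of 107 genes in all, of which 95 were tested. None passed in the planned edgeR test. With the sex term 2 of them fell and 1 rose, beside the 2.20% and 1.01% given above for all genes, and the median log2 fold change of the 95 was 0.001. Among the ligands none of 5 tested genes was called. Ltb, which encodes lymphotoxin beta, had 190.3 and 165 CPM in WT and 158 and 181 CPM in KO, and Tnfsf14, a ligand of the same family, had 9.58 and 9.95 CPM in WT and 14.2 and 10.9 CPM in KO, a log2 fold change of 0.35. Of 11 tested receptors 1 was called higher in the sex-term fit, beside 1.01% of all genes. It was Tnfrsf1b, the second receptor for tumour necrosis factor, at 15.5 and 15.6 CPM in WT and 34.2 and 24.4 CPM in KO replicates 1 and 2. Its sex-term log2 fold change was 0.89 ± 0.18 (SE; edgeR adjusted p = 0.0320). Both KO libraries lay above WT, with the higher value in replicate 1.

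Of the 16 adaptors between receptors and IKK 1 was called lower in the sex-term fit, beside 2.20% of all genes. Sharpin, a subunit of the linear ubiquitin ligase that helps to activate IKK, had 115 and 109.6 CPM in WT and 45.5 and 77.0 CPM in KO replicates 1 and 2. Its sex-term log2 fold change was -0.92 ± 0.18 (SE; edgeR adjusted p = 0.0285, and 0.267 in the planned test). None of the 10 genes on the list of IKK subunits, upstream kinases and their binding partners was called. The most highly expressed of them, Tab2, which encodes a kinase-binding adaptor, and Ikbkb had log2 fold changes of 0.17 and -0.30.

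Among 13 tested brakes other than IkB, only Zc3h12a was called, lower in KO in the sex-term fit, beside 2.20% of all genes. It encodes Regnase-1, an RNase that cleaves messenger RNAs of immune regulators and is itself cut after T cell receptor signals. It had 22.8 and 26.1 CPM in WT and 9.35 and 15.7 CPM in KO replicates 1 and 2, a sex-term log2 fold change of -1.002 ± 0.19 (SE; edgeR adjusted p = 0.0274). Tnfaip3, which removes ubiquitin from IKK activators, had 201 and 200.3 CPM in WT and 156 and 176 CPM in KO and was not called, nor were the others of this list. A list of 9 transcripts reported as targets of Regnase-1 or its partner Roquin held Nfkbiz, Nfkbid and Rel. Of its 7 tested genes only the 2 nuclear IkB genes already described were called, beside the 2.20% of all genes called lower. The list's median log2 difference was -0.14 between the female libraries and 0.33 between the male libraries. Icos (0.41), Il2ra (0.64) and Ctla4 (0.47) had positive values that did not pass, and Tnfrsf4 (-0.78) a negative one.

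NF-kB target genes had values on both sides of WT. None of 28 tested targets passed in either fit, and 6 of them had an unadjusted p under 0.05 in the planned test, beside 16.8% of all genes. In 7 of the 28 both KO libraries lay below both WT libraries and in 11 both lay above, beside 28.4% and 27.9% of all genes. Their median sex-term log2 fold change was 0.02. The most highly expressed, Bcl2l1 and Cflar, which both act against cell death, had log2 fold changes of 0.37 and 0.25. None of 19 early genes induced by the T cell receptor passed either, and their median was -0.20. In this list 11 genes had both KO libraries below both WT libraries and 2 had both above, beside the same 28.4% and 27.9% of all genes. An unadjusted p under 0.05 in the planned test was reached by 6 of the 19, all lower in KO, beside 8.69% of all genes lower. These were Fos, Jun, Junb, Dusp2, Dusp6 and Id3. Cd5 and Egr1, its most highly expressed genes, had log2 fold changes of -0.03 and 0.13.

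**Figure D4:**
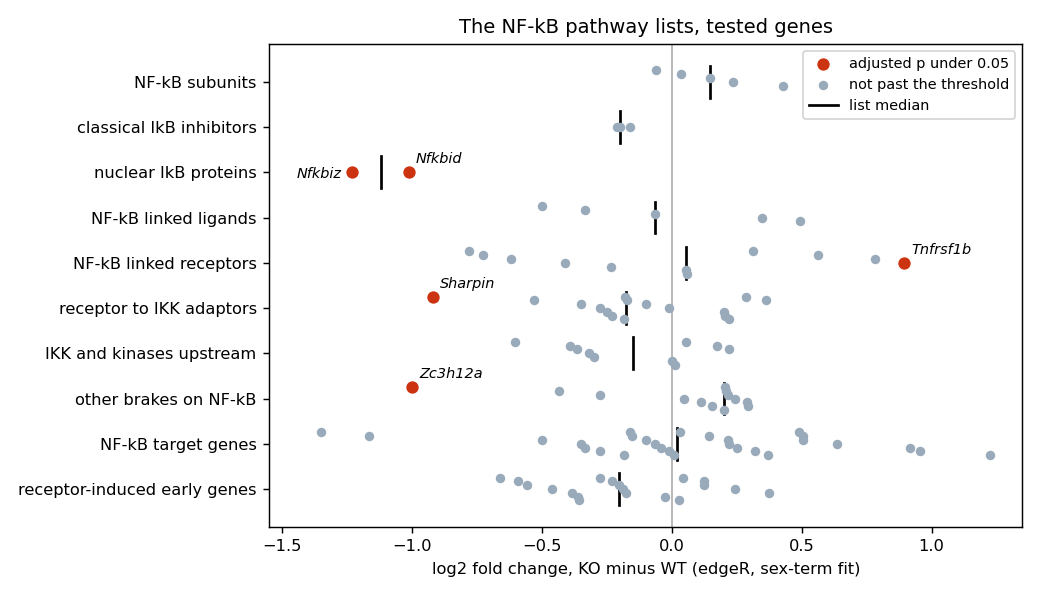
Sex-term log2 fold change (KO minus WT) of every tested gene in the members' classes and the other pathway lists; red points passed an edgeR adjusted p of 0.05 and black bars are list medians. Nfkbiz, Nfkbid, Sharpin and Zc3h12a lie on the lower side and Tnfrsf1b at 0.89 on the higher side.

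The genes whose centred log2 CPM profile over the 4 libraries lay nearest to that of Nfkbiz, the member with the largest change, were Srsf5, Vamp2 and Slc50a1 (Euclidean distances of 0.0478, 0.0615 and 0.0615). Srsf5 encodes a splicing factor, Vamp2 a vesicle fusion protein and Slc50a1 a sugar transporter. Srsf5 had 971 and 1020 CPM in WT and 275 and 608 CPM in KO replicates 1 and 2. Vamp2 had 165 and 168 CPM in WT and 46.1 and 106 CPM in KO, and Slc50a1 had 45.0 and 49.4 CPM in WT and 13.2 and 28.4 CPM in KO. Each of these genes had its lowest level in KO replicate 1. The likeness rests on 4 libraries and describes these libraries only.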

How the data were processed

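RNA-seq of sorted DP thymocytes was compared between 2 KO and 2 WT libraries, by the groups in the labels. The deposited values are raw counts of fragments on the exons of each gene (Ensembl 98, GRCm38), which the authors obtained with featureCounts 1.6.3 run without strand or multi-mapping options, per the file headers. Reads shared between genes are thus left out, and sense and antisense reads cannot be told apart. The submitters' processing notes give featureCounts as 1.6.4 and also name HISAT2, Trim Galore 0.5.0, DESeq2 and FastQC. TPM used the deposited length of each gene.

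Counts were fitted over the whole table in R 4.3.3 with edgeR 4.0.16 (filterByExpr, TMM, quasi-likelihood F test, Benjamini-Hochberg over 15070 genes, threshold 0.05), KO minus WT. Standard errors were taken from the fold change and its F value. Symbols came from GENCODE M21. The sex-term fit adds the replicate number and was a listed alternative. Pair differences use log2 CPM with a prior count of 2. DESeq2 1.42.0 and limma-voom 3.58.1 were alternatives. The steps were tested on simulated counts for 15070 genes, with no effect of sex or replicate built in. The sex-term fit found 84% of the 2-fold changes and made 198 calls, 16 of them false. Without the term 84% were found too, with 201 calls, 18 of them false. The simulation thus cannot tell which fit suits these libraries. The named genes are the members, Chaf1b, up to 4 called genes of each pathway list or its 2 most highly expressed, and the 3 genes nearest in profile to the most changed member; marker and other pathway genes were named beside them after their values were seen. Members and lists were chosen with earlier results of these data known.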

Additional observations from a re-analysis of the deposited data

Results flagged for a closer look

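Nfkb2 differed in direction between the sexes, with a log2 difference, KO minus WT, of -0.0151 between the female libraries and 0.0834 between the male libraries. Each pair is 1 KO and 1 WT library, both values lie within the planned 95% interval of -0.27 to 0.34, and the difference between the pairs was not tested.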

How the results depend on the processing

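Of 140 values of single members over 14 alternatives, 121 kept their sign and their side of the threshold, 16 passed the threshold where the planned test had not, and 3 changed sign. All 3 belong to Nfkb2, at -0.0411 with library totals, -0.0485 with library totals and the replicate block, and -0.0564 without KO replicate 2; leaving out 1 library gave -0.0564 to 0.124 for this gene. Members called lower numbered 0 in the planned test, 1 with DESeq2 and 2 without a filter on low counts. They numbered 2 with the replicate block in edgeR, DESeq2 and limma-voom, and 1 with the block and library totals. The number was 0 with RLE size factors, library totals or limma-voom without the block, and 0 with the block and robust dispersion. Leaving out 1 library gave 0 to 3 members lower and 0 to 1 higher, with Nfkbid and Nfkbiz called whichever KO library was left out. Without WT replicate 1 or 2 neither was called, and the lone WT library is then assumed to vary like the KO group. The cause was not tested. Over all genes the planned test called 0 lower and 1 higher, DESeq2 285 and 177, and the test without a filter 838 and 627. RLE size factors, library totals and limma-voom, each without the block, also called 0 lower and 1 higher. The replicate block called 331 and 152 in edgeR, 252 and 128 in DESeq2, 355 and 201 in limma-voom, 119 and 26 with library totals and 47 and 29 with robust dispersion. Leaving out 1 library called 0 to 2630 genes lower and 1 to 2518 higher, the highest without KO replicate 2. Same-numbered libraries deviated together (r = 0.472 over 15070 genes), but the labels do not pair them. The replicate block leaves 1 residual degree of freedom, so a library could not be left out of it. Counts of 116 to 169 for Relb limit what could be seen for that gene.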
